A study of Mus musculus with 28 samples.

Results

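The BCL2 family genes of mouse were followed in 2 fibroblast lines across glucose and time. The 10 genes Bcl2, Bcl2l1, Mcl1, Bax, Bak1, Bid, Bcl2l11, Bbc3, Pmaip1 and Bmf were listed by name, and each probe set carrying 1 of these symbols alone in the platform annotation was taken. This gave 30 probe sets of 9 genes, among 45037 tested. The symbol Bax was found on no probe set in the annotation used here, so Bax was not analysed. Bcl2 had 5 probe sets, Bcl2l1 4, Mcl1 6, Bak1 2, Bid 3, Bcl2l11 5, Bbc3 1, Pmaip1 1 and Bmf 3. The members were not chosen by a threshold on their values, but they were listed with earlier results of these data known.

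The question of the study was how glucose supply alters gene expression in the line labelled NIH3T3 K-ras, called K-ras here, and in NIH3T3, immortalised fibroblasts from mouse embryos. The 14 groups held 2 arrays each, labelled as biological replicates. K-ras cells were collected at 0 h (the medium change, in 25 mM glucose), after 24, 48 and 72 h in 25 mM glucose, and after 24, 48 and 72 h in 1 mM glucose. NIH3T3 cells were collected in the same 7 conditions. All cultures had 4 mM glutamine. The labels give neither the K-ras allele nor its promoter, and 1 line of each kind was used, so a difference between the lines cannot be told apart from a difference between those 2 lines' histories. With 2 arrays a group, p-values rest on the spread pooled over all groups.

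The BCL2 family decides whether the outer membrane of the mitochondrion is opened during apoptosis. Survival members such as BCL2, BCL-XL (from Bcl2l1) and MCL1 hold the pore-forming effectors BAX and BAK in check. BH3-only members sense damage, lost attachment or missing growth signals; they bind the survival members, and some activate the effectors directly. Some BH3-only genes are controlled by transcription, PUMA (Bbc3) and NOXA (Pmaip1) by p53 among others, and BIM (Bcl2l11) in part by FOXO factors.

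All values are log2 ratios to a probe set's own median over the 28 arrays, so a level cannot be read and genes cannot be compared in abundance. For the same reason, the presence of fibroblast markers could not be checked against the label. On the 500 genes with the largest SD, which included 0 of the members, the arrays formed 2 clusters of 14. There were 6 arrays in the cluster of the other line, called out of place here. Of these, 3 were labelled K-ras: the first replicate at 0 h in 25 mM and the first replicates at 48 and 72 h in 1 mM. The other 3 were labelled NIH3T3: both arrays at 24 h in 1 mM and the first replicate at 48 h in 1 mM. They were kept under their labels in the main fit, and results are also given without them for most members whose call changes. Dropping arrays by profile favours differences between the lines, so those values are shown as a description. K-ras 25 mM 72 h replicate 1 also stood apart, with an interquartile range of 0.65 against at most 0.45 in the others. The correlation between the arrays of a group over all genes was between -0.53 and 0.88 (median 0.27).

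**Figure D1:**
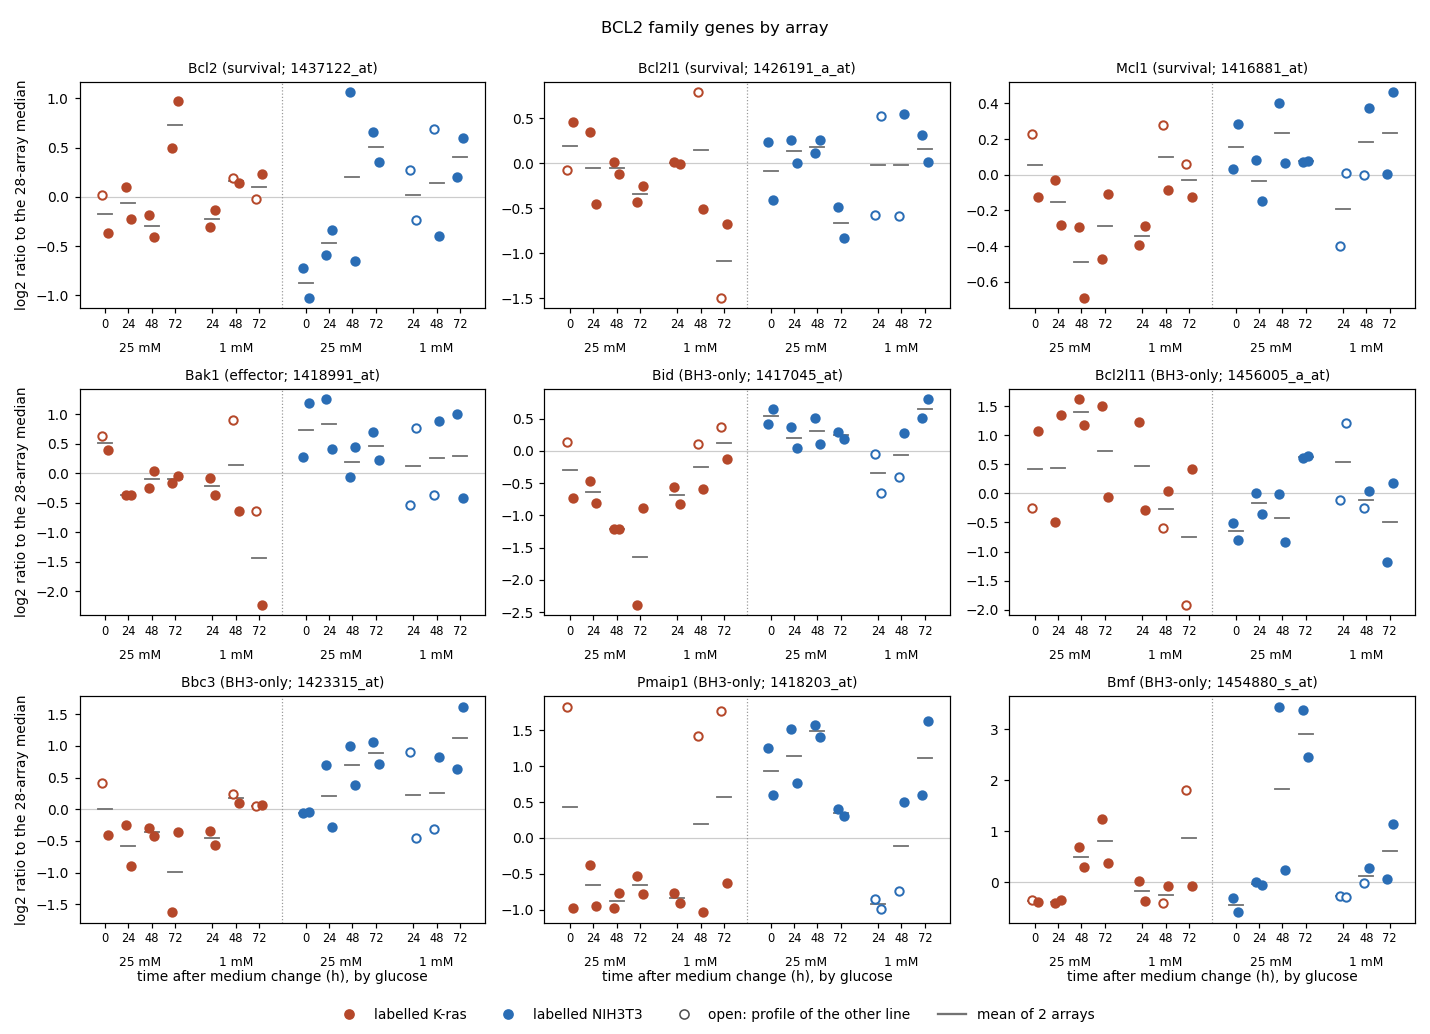
The log2 ratio to the 28-array median is shown for each array by line, glucose and hours after the medium change, for the probe set of each gene with the largest SD; open points mark the 6 arrays out of place and bars the mean of 2 arrays. Pmaip1 in the K-ras arrays in place lies between -1.04 and -0.38, below the 0.30 to 1.63 of the NIH3T3 arrays in place, and Bmf in NIH3T3 at 25 mM and 72 h reaches 3.37 and 2.46.

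Averaged over the 4 times at 25 mM, the line differences called among the members were in BH3-only genes. Bid and the p53 targets Bbc3 and Pmaip1 were lower in K-ras cells, and 1 probe set of Bcl2l11 was higher. Only the 2 calls of Bid held in every fit that left out 1 array. By limma with Benjamini-Hochberg adjustment over all 45037 probe sets, 5 of the 30 members' probe sets were called (16.7%), against 8.17% of all probe sets. By direction, 1 was higher in K-ras, against 4.16% of all probe sets, and 4 were lower, against 4.01%. All 5 were among the 13 BH3-only probe sets; 0 of 15 survival and 0 of 2 effector probe sets were called, with 1 survival and 0 effector probe sets at an unadjusted p under 0.05. The difference between the classes was not tested. Over 18193 genes, with 1 probe set each, the median line difference was -0.04 and 42.5% were positive, and among the 9 members it was -0.57 with 3 positive. In bulk RNA, fewer cells with a transcript and less RNA per cell cannot be told apart.

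Bid links death receptors to the mitochondrion once caspase-8 has cut it. Its probe set 1417045_at had a lowest, median and highest log2 ratio of -2.39, -0.84 and 0.14 in the 8 K-ras arrays at 25 mM, against 0.04, 0.33 and 0.65 in the 8 NIH3T3 arrays. The single K-ras array above the lowest NIH3T3 value was the one out of place at 0 h. The line difference was -1.27 ± 0.20 (SE; limma adjusted p = 0.0045). A second probe set, 1448560_at, gave -1.16 ± 0.20 (adjusted p = 0.0052), and the third, 1447873_x_at, gave -0.27 ± 0.15 (adjusted p = 0.357). Both calls remained in 16 of 16 fits that left out 1 array at 25 mM, at -1.45 to -1.08 and -1.30 to -1.02.

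PUMA, the product of Bbc3, binds every survival member. Bbc3 had -1.63, -0.38 and 0.42 in the K-ras arrays at 25 mM, against -0.28, 0.54 and 1.06 in the NIH3T3 arrays. The groups overlapped, and the array out of place again held the highest K-ras value. The difference was -0.92 ± 0.25 (limma adjusted p = 0.0326). The call held in 5 of 16 fits without 1 array and was lost in the others, with adjusted p of 0.0555 to 0.106; the 5 left out replicate 1 of K-ras at 0 or 24 h, replicate 2 of K-ras at 72 h, or replicate 2 of NIH3T3 at 24 or 48 h. Without the 6 arrays out of place it was -1.02.

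NOXA, the product of Pmaip1, mainly binds MCL1. Pmaip1 had -0.98, -0.78 and 1.83 in the K-ras arrays at 25 mM, against 0.30, 1.01 and 1.58 in the NIH3T3 arrays. The highest of all 16 values was K-ras 0 h replicate 1, and the other 7 K-ras arrays lay between -0.98 and -0.38, below every NIH3T3 array. The difference was -1.42 ± 0.42 (limma adjusted p = 0.0452). The call was lost in 15 of 16 fits without 1 array, with adjusted p of 0.0600 to 0.136. The 1 fit that kept it left out K-ras 0 h replicate 1, at -1.77. Without all 6 arrays out of place the difference was also -1.77. Both fits leave 1 K-ras array at 0 h.

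Across all 28 arrays Pmaip1 followed the profile and not the label. It lay between 1.43 and 1.83 in the 3 K-ras arrays out of place and between -0.998 and -0.74 in the 3 NIH3T3 arrays out of place. The 11 K-ras arrays in place lay between -1.04 and -0.38 and the 11 NIH3T3 arrays in place between 0.30 and 1.63. Bid 1417045_at showed a like order. It lay between -2.39 and -0.13 in the K-ras arrays in place and between 0.04 and 0.80 in the NIH3T3 arrays in place. Out of place, it lay between 0.10 and 0.37 in the K-ras arrays and between -0.65 and -0.04 in the NIH3T3 arrays. The clusters came from these same arrays, so genes tied to the clustering genes are bound to part them. How many of all genes do so was not counted.

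BIM, the product of Bcl2l11, binds all survival members and is induced when growth factors are withdrawn. Its probe set 1435448_at had -0.94, 0.32 and 0.81 in the K-ras arrays at 25 mM, against -1.35, -0.71 and 0.48 in the NIH3T3 arrays. The difference was 0.74 ± 0.20 (limma adjusted p = 0.0290). The other 4 probe sets were positive too, at 0.26 to 0.90, with adjusted p of 0.187 to 0.492. The call held in 7 of 16 fits without 1 array. It was lost, with adjusted p of 0.0536 to 0.0955, without replicate 2 of K-ras at 0 h, either K-ras array at 24 h, replicate 1 of K-ras at 48 h, replicate 2 of NIH3T3 at 0, 24 or 48 h, or either NIH3T3 array at 72 h.

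**Figure D2:**
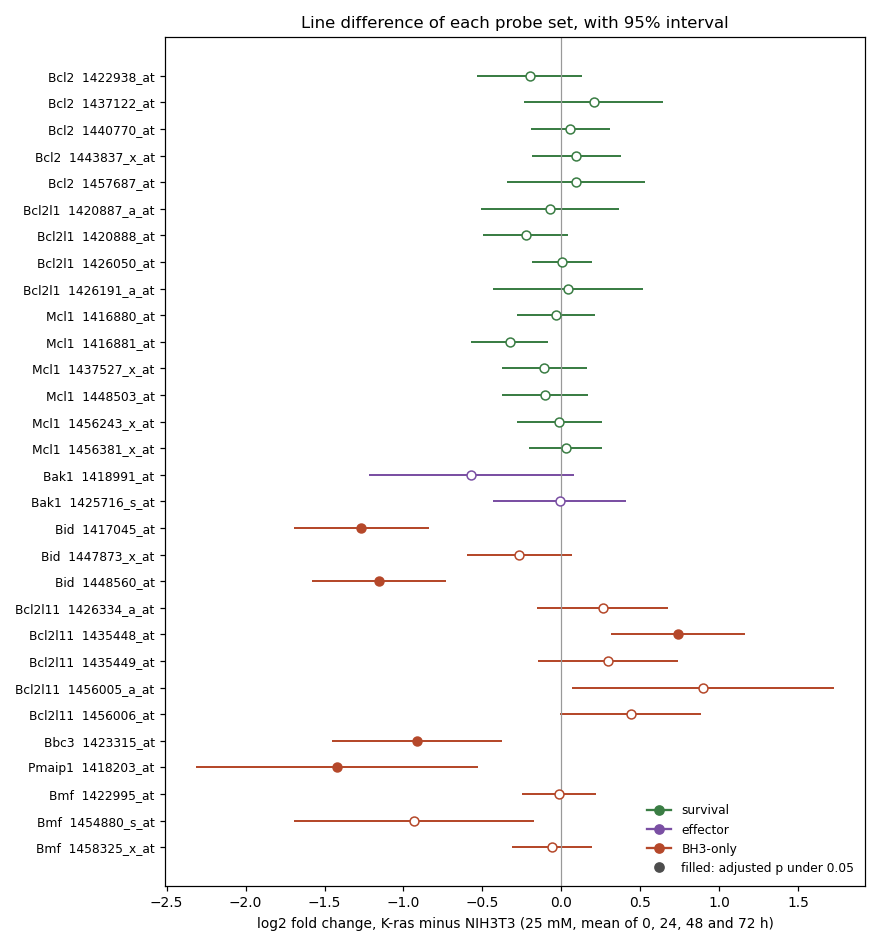
Each point is the log2 fold change of K-ras minus NIH3T3 at 25 mM glucose, averaged over 0, 24, 48 and 72 h, for 1 of the 30 probe sets, with its 95% interval; filled points passed the threshold. The 5 filled points are 2 of Bid, 1 of Bcl2l11, Bbc3 and Pmaip1, between -1.42 and 0.74, while the 15 survival probe sets lie between -0.33 and 0.21.

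No line difference was called in the survival and effector members. The 15 survival probe sets lay between -0.33 and 0.21, with a median of -0.01. Mcl1 1416881_at was lowest, at -0.33 ± 0.11 (limma adjusted p = 0.0888), and the other 5 Mcl1 probe sets lay between -0.11 and 0.03. Bcl2 1437122_at had -0.41, -0.08 and 0.97 in the K-ras arrays at 25 mM, against -1.02, -0.46 and 1.06 in the NIH3T3 arrays, and its line difference was 0.21 ± 0.21 (adjusted p = 0.642). Bcl2l1 1426191_a_at gave 0.04 ± 0.22 (adjusted p = 0.950). For Bak1, whose product forms the pore, 1418991_at gave -0.57 ± 0.31 (adjusted p = 0.307) and 1425716_s_at gave -0.01 ± 0.20. Bmf 1454880_s_at, for a BH3-only protein released when cells lose attachment, gave -0.93 ± 0.36 (adjusted p = 0.128).

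The sequences just upstream of the called BH3-only genes and of Bmf are shown to set their motifs beside these values. Each is the 250 bases before the RefSeq start in GRCm38.p6, on the gene's strand, with the matches in capitals. Searched on both strands were the FOXO core GTAAACA, the E-box CACGTG, the AP-1 site TGACTCA, the GC box GGGCGG and the p53 half-site consensus. The matches do not overlap each other. Bid had 1 start, Bcl2l11 2, Bbc3 3 and Bmf 3, and for genes with several the window with a FOXO core or p53 match is shown, chosen after the search. Pmaip1 is named only.
Bid, chr6:120916825-120917074, minus strand: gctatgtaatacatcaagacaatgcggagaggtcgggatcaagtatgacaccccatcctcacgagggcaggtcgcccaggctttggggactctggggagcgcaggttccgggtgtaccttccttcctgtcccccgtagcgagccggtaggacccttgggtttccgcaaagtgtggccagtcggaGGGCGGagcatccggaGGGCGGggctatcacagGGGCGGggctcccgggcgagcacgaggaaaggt
Bbc3, chr7:16310011-16310260, plus strand: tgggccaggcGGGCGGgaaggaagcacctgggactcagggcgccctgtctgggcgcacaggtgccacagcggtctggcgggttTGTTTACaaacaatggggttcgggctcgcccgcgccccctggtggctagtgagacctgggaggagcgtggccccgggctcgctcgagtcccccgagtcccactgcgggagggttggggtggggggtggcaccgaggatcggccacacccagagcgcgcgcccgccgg
Bcl2l11, chr2:128125788-128126037, plus strand: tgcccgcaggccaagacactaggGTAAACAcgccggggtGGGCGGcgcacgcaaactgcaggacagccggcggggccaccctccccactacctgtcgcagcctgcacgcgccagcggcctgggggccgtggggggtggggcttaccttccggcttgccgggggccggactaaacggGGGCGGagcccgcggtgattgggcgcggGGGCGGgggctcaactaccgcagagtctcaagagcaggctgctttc
Bmf, chr2:118544588-118544837, minus strand: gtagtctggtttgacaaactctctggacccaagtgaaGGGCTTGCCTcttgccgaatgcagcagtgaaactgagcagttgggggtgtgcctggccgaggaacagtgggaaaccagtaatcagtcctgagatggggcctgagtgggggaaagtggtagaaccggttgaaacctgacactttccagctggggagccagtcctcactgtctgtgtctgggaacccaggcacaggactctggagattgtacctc
The Bid window held 3 GC boxes. The Bbc3 window held 1 GC box and a FOXO core read as TGTTTAC, whose first base lies 167 bases before the start. The Bcl2l11 window held 3 GC boxes and a FOXO core 227 bases before the start. The Bmf window held a p53 half-site 213 bases before the start. Of the windows not shown, those of Bbc3 held 5 GC boxes in one, and 7 with an E-box in the other, that of Bcl2l11 held 2 GC boxes, and those of Bmf held 0 matches. No window of Bbc3 held a p53 half-site. Of 32851 promoter windows of the same length, counted per window and so not matched to a choice among several starts, 3.17% held a FOXO core, 6.02% an E-box, 4.46% an AP-1 site, 32.7% a GC box and 7.13% a p53 half-site. A match is a run of letters and not a bound site.

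By time, the line difference at 25 mM was called at 72 h alone. Bid 1417045_at had -2.39 and -0.89 in K-ras cells, against 0.30 and 0.19 in NIH3T3 cells, a difference of -1.88 ± 0.40 (limma adjusted p = 0.0443). It was 1 of 30 probe sets, against 0.588% of all called and 0.353% called as lower. The call was lost without K-ras replicate 1, at -1.13 (adjusted p = 0.312), and without either NIH3T3 array (adjusted p = 0.318 and 0.245). Leaving out the 6 arrays out of place as well does not move the value without K-ras replicate 1, as they lie in other groups. Bbc3 had -1.63 and -0.36 in K-ras cells, against 1.06 and 0.72 in NIH3T3 cells, a difference of -1.88 ± 0.50 (adjusted p = 0.0786). Without the 6 arrays out of place, which lie in other groups, the value was the same and its adjusted p was 0.0205. There the spread is pooled without arrays picked by profile. Without K-ras replicate 1, the array that stood apart, the Bbc3 difference was smaller, at -1.25, and rested on 1 K-ras array.

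At 0, 24 and 48 h limma called 0 of 30, against 0.00222%, 0.0111% and 0.00888% of all probe sets, with 1, 5 and 7 at an unadjusted p under 0.05. At 48 h Pmaip1 had -0.98 and -0.78 in K-ras cells, against 1.58 and 1.40 in NIH3T3 cells. The gap was -2.37 ± 0.84 (adjusted p = 0.368), while the same gap had an adjusted p of 0.0013 in the fit that left the 6 arrays out. Likewise without them, Pmaip1 gave -1.81 (limma adjusted p = 0.0095) at 24 h. Bid 1448560_at then gave -1.43 (adjusted p = 0.0235) at 24 h and -1.33 (adjusted p = 0.0340) at 48 h. The 24 and 48 h arrays at 25 mM are all in place, so only the pooled spread differs there. At 0 h that fit drops K-ras replicate 1, and the Pmaip1 difference of -1.91 rests on 1 K-ras array. With both arrays kept, the 0 h means of Pmaip1 were 0.43 in K-ras cells and 0.93 in NIH3T3 cells.

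At 1 mM limma called 0 of 30 at 24 h, 48 h and 72 h, against 0%, 0% and 0.0333% of all probe sets, with 0, 0 and 7 at an unadjusted p under 0.05. The arrays out of place fall mostly in these groups, and at 24 h no NIH3T3 array is in place. At 72 h Pmaip1 had 1.77 and -0.62 in K-ras cells, against 0.60 and 1.63 in NIH3T3 cells. Without the 6 arrays, K-ras replicate 1 among them, the 72 h difference in Pmaip1 was -1.74 (adjusted p = 0.0271). That fit also gave Bak1 1418991_at at -2.52 (adjusted p = 0.0122) and Bid 1448560_at at -1.68 (adjusted p = 0.0224), each resting on 1 K-ras array.

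The hybridisation control bioC, a biotinylated bacterial transcript added to the hybridisation mix, differed between the lines at 25 mM without overlap. Its log2 ratio was -0.27 to 2.94 in K-ras arrays, against -2.35 to -0.81 in NIH3T3 arrays. At 1 mM the lines overlapped, with 0.10 to 0.80 in K-ras arrays, against -2.28 to 0.36 in NIH3T3 arrays. In the 3 K-ras arrays out of place bioC was 0.10 to 0.33, and Pmaip1 1.43 to 1.83. In the NIH3T3 arrays out of place bioC was -1.82 and -2.28 at 24 h, with Pmaip1 at -0.85 and -0.998, and 0.32 at 48 h, with Pmaip1 at -0.74. The part of hybridisation in the line differences was not tested.

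**Figure D3:**
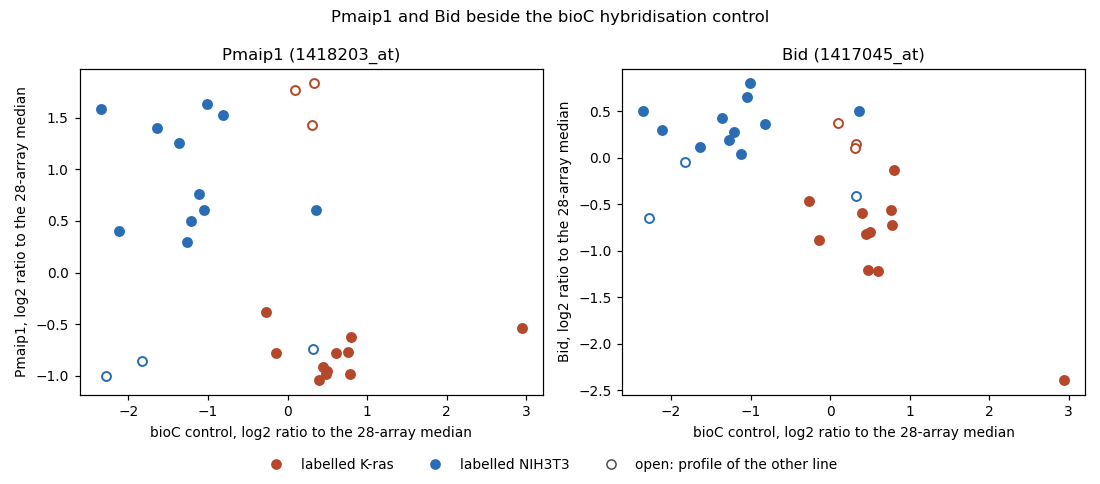
Pmaip1 and Bid log2 ratios of the 28 arrays are plotted against the log2 ratio of the control bioC, with open points for arrays out of place. Pmaip1 lies between 1.43 and 1.83 in the 3 K-ras arrays out of place and between -0.998 and -0.74 in the 3 NIH3T3 arrays out of place, on the side of the other line.

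Over time at 25 mM, 1 of 3 Bmf probe sets was called as higher at 72 h in NIH3T3 cells. This probe set, 1454880_s_at, had -0.31 and -0.59 at 0 h, 0.01 and -0.06 at 24 h, 3.44 and 0.23 at 48 h, and 3.37 and 2.46 at 72 h. Both 72 h values lay above both 0 h and both 24 h values, and the 48 h arrays disagreed. The 72 minus 0 h change was 3.36 ± 0.71 (limma adjusted p = 0.0155), 1 of 30 probe sets called, against 4.27% of all called and 2.68% called as higher. The 72 minus 24 h change was 2.94 ± 0.71 (adjusted p = 0.0301), again 1 of 30, against 4.07% called and 2.5% called as higher, and it shares the 72 h arrays with the first. Both counts of members are near the share over all probe sets. Leaving out any 1 of the arrays compared ended each call, with changes of 2.91 to 3.82 (adjusted p = 0.0667 to 0.179) and of 2.48 to 3.39 (adjusted p = 0.0920 to 0.262). The other 2 Bmf probe sets lay between -0.20 and 0.29 in these NIH3T3 arrays at 48 and 72 h, so the rise was seen by 1 of 3 probe sets.

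The 48 h NIH3T3 arrays differed in the same way over all genes. Replicate 1, with the high Bmf value, had r = 0.80 with the 72 h mean and r = -0.17 with the 24 h mean over 18193 genes. Replicate 2 had r = 0.42 and r = 0.53. The part of this in the Bmf values was not tested.

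Other members changed less over that time in NIH3T3. Bcl2 1437122_at had 0.66 and 0.36 at 72 h, against -0.72 and -1.02 at 0 h, a difference of 1.38 ± 0.41 (limma adjusted p = 0.0670). Bcl2l11 1435448_at had 0.16 and 0.02 at 72 h, against -1.17 and -1.35 at 0 h, a difference of 1.35 ± 0.40 (adjusted p = 0.0628), which had an adjusted p of 0.0193 without the arrays out of place. None of the arrays out of place is in these groups, so only the pooled spread differs in that fit. The groups did not overlap for either gene. With 2 arrays a group this carries little weight, and its share over all probe sets was not counted. From 0 to 24 h, 0 of 30 were called, against 0.00444%, with 2 at an unadjusted p under 0.05. At 1 mM from 24 to 72 h, 0 of 30 were called, against 0.0133%, with 5 at an unadjusted p under 0.05.

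In K-ras cells limma called 0 of 30 over time at 25 mM, against 0% of all probe sets for 24 minus 0 h, 72 minus 0 h and 72 minus 24 h, and 0% for 72 minus 24 h at 1 mM. At an unadjusted p under 0.05 there were 0, 4, 1 and 5. Bid 1417045_at had 0.14 and -0.73 at 0 h, -0.47 and -0.80 at 24 h, -1.21 and -1.21 at 48 h, and -2.39 and -0.89 at 72 h. Its 72 minus 0 h difference was -1.35 ± 0.40 (adjusted p = 0.230), and -0.91 (adjusted p = 0.638) without the arrays out of place. Without replicate 1 at 72 h, which stood apart, it was -0.60 (adjusted p = 0.939). Bmf had 1.24 and 0.37 at 72 h, against -0.36 and -0.39 at 0 h, a difference of 1.18 ± 0.71 (adjusted p = 0.468), and 0.75 without that array. The Bmf change in K-ras minus that in NIH3T3 was -2.18 ± 1.01 (95% interval -4.31 to -0.05, adjusted p = 0.453), so a difference of the time course between the lines was not shown. That interaction was called for 0 of 30, against 0.00222%, with 3 at an unadjusted p under 0.05.

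Glucose gave no call among the members. In K-ras cells limma called 0 of 30 for 1 mM minus 25 mM at 24, 48 and 72 h and on average, against 0%, 0%, 0.0488% and 0.00222% of all probe sets, with 0, 6, 6 and 7 at an unadjusted p under 0.05. In NIH3T3 cells it called 0 of 30 at each time and on average, against 0.00222%, 0%, 0.00666% and 0.00222%, with 2, 2, 2 and 1. So few probe sets were called at all that 0 members is near the background. Both NIH3T3 arrays at 24 h in 1 mM and the first replicate at 48 h are out of place. At 24 h a glucose difference in NIH3T3 thus cannot be told apart from a difference of profile. There Pmaip1 had a mean of -0.93 at 1 mM, against 1.14 at 25 mM, a difference of -2.07 that was not called.

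In K-ras cells the 7 probe sets at an unadjusted p under 0.05 on average were 3 of Bid, higher at 1 mM by 0.54 to 0.89, and 4 of Bcl2l11, at -1.04 to -0.51, with limma adjusted p of 0.298 to 0.621. In this average the first K-ras replicates at 48 and 72 h in 1 mM are out of place. They had -0.59 and -1.92 for Bcl2l11 1456005_a_at, and 0.10 and 0.37 for Bid 1417045_at. The averages without them are not given. At 72 h Bid 1417045_at had 0.37 and -0.13 in K-ras cells at 1 mM, against -2.39 and -0.89 at 25 mM. The difference was 1.76 ± 0.40 (95% interval 0.91 to 2.61, limma adjusted p = 0.0786), and 1.51 (adjusted p = 0.0908) without the arrays out of place. Without K-ras 25 mM replicate 1, which stood apart, it was 1.01 (adjusted p = 0.729). The other Bid probe sets gave 1.22 and 0.23. In NIH3T3 the 1417045_at difference was 0.41 ± 0.40 (adjusted p = 0.934). Bcl2l11 1456005_a_at had -1.92 and 0.42 in K-ras cells at 1 mM, against 1.51 and -0.05 at 25 mM. These overlapped, and the difference was -1.48 ± 0.78 (adjusted p = 0.412), -0.31 without the arrays out of place and -0.70 without K-ras 25 mM replicate 1. In NIH3T3 it was -1.12 ± 0.78 (adjusted p = 0.871). At 48 h the same probe set had -0.59 and 0.04 at 1 mM, against 1.62 and 1.18 at 25 mM in K-ras cells, a difference of -1.68 ± 0.78 (limma unadjusted p = 0.0462, not called after adjustment). The value of -0.59 is that of the array out of place.

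Bak1 1418991_at had -0.65 and -2.23 in K-ras cells at 1 mM, against -0.17 and -0.04 at 25 mM, a difference of -1.33 ± 0.61 (adjusted p = 0.342). Without the 6 arrays out of place, which leaves 1 K-ras array at 1 mM, it was -2.13 (adjusted p = 0.0480).

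Bmf 1454880_s_at was the probe set called over time at 25 mM. In NIH3T3 cells at 72 h it had 0.07 and 1.14 at 1 mM, against 3.37 and 2.46 at 25 mM. The difference was -2.31 ± 0.71 (95% interval -3.81 to -0.80, limma adjusted p = 0.529); it uses the same 25 mM arrays as the time comparison. In K-ras cells it was 0.06 ± 0.71 (adjusted p = 0.980). The glucose effect in K-ras minus that in NIH3T3 was 2.37 ± 1.01 (95% interval 0.23 to 4.50, adjusted p = 0.404). This interaction was called for 0 of 30 and for 0% of all probe sets, with 7 members' probe sets at an unadjusted p under 0.05.

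Among the survival genes at 72 h, Mcl1 1416881_at differed with glucose by 0.26 ± 0.23 (95% interval -0.22 to 0.74) in K-ras and by 0.16 ± 0.23 (-0.32 to 0.64) in NIH3T3. Bcl2l1 1426191_a_at had -1.49 and -0.67 in K-ras cells at 1 mM, against -0.43 and -0.25 at 25 mM, and 0.31 and 0.01 in NIH3T3 cells at 1 mM, against -0.49 and -0.83 at 25 mM. The differences were -0.74 ± 0.45 (limma adjusted p = 0.480) in K-ras and 0.82 ± 0.45 (adjusted p = 0.805) in NIH3T3. Their own difference was -1.56 ± 0.63 (95% interval -2.89 to -0.23, adjusted p = 0.375), so opposite movement was not shown.

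**Figure D4:**
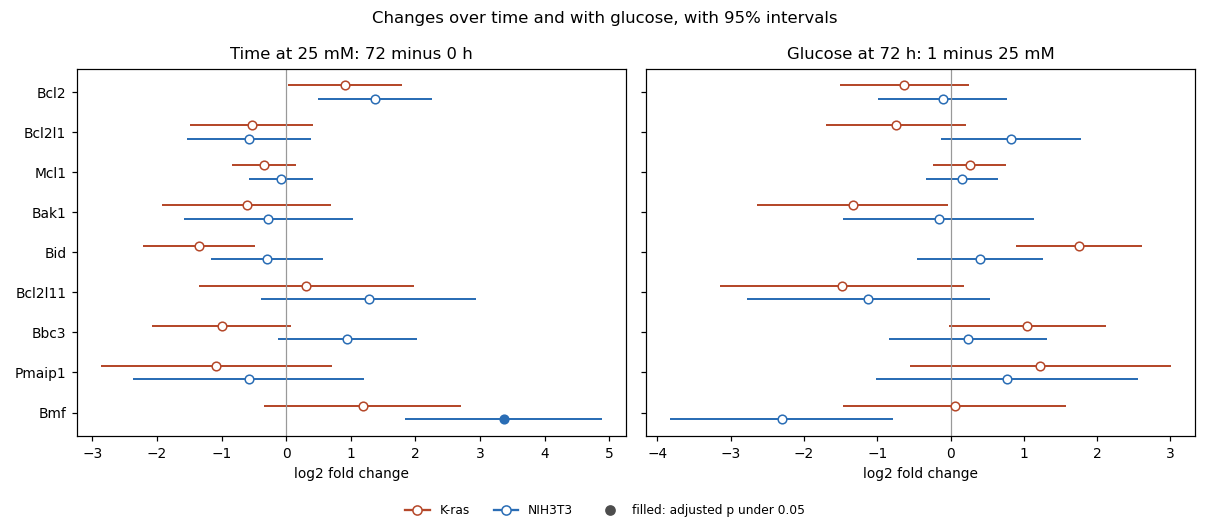
Log2 fold changes with 95% intervals are shown for 1 probe set per gene, on the left for 72 minus 0 h at 25 mM and on the right for 1 mM minus 25 mM at 72 h, in K-ras and NIH3T3 cells. The single filled point is Bmf over time in NIH3T3 at 3.36, and in the glucose panel Bmf in NIH3T3 lies at -2.31 and Bid in K-ras at 1.76, both unfilled.

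The rest of the pathway was counted by lists, 1 probe set per gene, against 10.5% of 18193 genes called in the averaged line comparison. Of 12 apoptosome and caspase genes, Casp6, an executioner caspase (0.71), Aifm1, a mitochondrial flavoprotein (0.91), and Dffb, the nuclease that cuts DNA in apoptosis (0.46), were higher in K-ras and 0 lower. Of 7 death receptor genes, Tradd, a receptor adaptor (-0.86), and Tnfrsf21, a death receptor (-1.04), were lower and 0 higher. Of 9 regulators Foxo1, a FOXO factor, was lower (-1.20) and 0 were higher. In the 9 other BCL2 family members and the 5 inhibitors of apoptosis, 0 were called. In NIH3T3 over 72 minus 0 h, against 5.23% of genes, Foxo3, whose factor induces Bcl2l11, rose by 2.10, the death receptor gene Fas by 1.37 and the inhibitor gene Birc3 by 1.43. Cycs, for the cytochrome c that assembles the apoptosome, fell by 1.54, and Tnfrsf21 fell by 2.43.

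Some markers of other cell types differed between the lines as well. The averaged comparison called 10.5% of 18193 genes. In it 3 of 5 epithelial markers and 2 of 4 skeletal muscle markers were lower in K-ras. Of 5 leukocyte markers 1 was higher and 1 lower, and 0 of 3 endothelial markers were called. Among 8 fibroblast markers 1 was higher, and their mean ranged over -0.52 to 0.62 in K-ras arrays at 25 mM, against -1.19 to 1.12 in NIH3T3 arrays. The mean log2 ratio of the epithelial list ranged over -0.96 to 0.35 in K-ras arrays at 25 mM, against 0.25 to 0.90 in NIH3T3 arrays. That of the leukocyte list ranged over -0.18 to 0.01, against 0.01 to 0.40, and that of the muscle list over -0.28 to 0.22, against 0.01 to 1.59. In NIH3T3 at 25 mM, 7 of 8 fibroblast markers had positive values for 72 minus 0 h (median 1.70, 1 called as higher). Over all genes 42.7% were positive there and 5.23% called. For 72 minus 24 h, 8 of 8 were positive (median 1.70, 2 called as higher), against 40.7% of genes positive and 5.41% called. Markers at 0 cannot be named on centred values. The part of the markers in the members' differences was not tested.

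Probe sets of 1 gene often disagreed. Over the 28 arrays the correlation between them was -0.42 to 0.48 for Bcl2, -0.33 to 0.79 for Bcl2l1, -0.19 to 0.96 for Mcl1, 0.67 for Bak1, 0.21 to 0.85 for Bid, 0.26 to 0.73 for Bcl2l11 and -0.20 to 0.28 for Bmf. The SD over the arrays was 0.22 to 0.28 for the Mcl1 probe sets, against 1.06 for Pmaip1 and 1.11 for Bmf 1454880_s_at.

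The gene most like each member was taken as that with the highest Pearson correlation over the 28 arrays, and is described by its correlation within the 14 arrays of each profile, which share platform and normalisation. Bak1 was most like Ogdh, with r = 0.93 in K-ras profile arrays and r = 0.87 in NIH3T3 profile arrays. Bbc3 was most like Pnpla2 (0.92 and 0.82), Bcl2l11 like Lpar1 (0.90 and 0.79) and Bmf like Caps2 (0.80 and 0.99). Bid was most like Pfkp (0.91 and 0.47). Pmaip1 was most like Cpne4, with r = 0.02 in K-ras profile arrays and r = 0.54 in NIH3T3 profile arrays, against 0.94 over all 28. Among the members, Bid and Bbc3 had r = 0.82 in K-ras profile arrays and r = 0.43 in NIH3T3 profile arrays. Bid and Bmf had -0.81 and 0.13, and Bcl2 and Bmf 0.34 and 0.76. These pairs were picked after their values were seen. The K-ras array that stood apart by its interquartile range is among the K-ras profile arrays. It holds their lowest Bid value (-2.39), lowest Bbc3 value (-1.63) and highest Bmf value (1.24). How far the K-ras profile correlations of Bid, Bbc3 and Bmf rest on that array was not tested.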

How the data were processed

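Total RNA of 28 cultures was hybridised to Affymetrix arrays after biotin labelling, per the labels' protocols. Per the submitters' processing notes RMA was used, with version and settings not given in the sources. The deposited log2 values were already centred. Tested on the file, all 45101 probe sets had a median linear ratio across arrays of 1, to within 0.001, so levels had been removed. Signal over background is unknown, and no filter on low values could be run.

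Groups came from the labels. limma 3.58.1 in R 4.3.3 was fitted with 1 coefficient per group on 45037 probe sets, leaving out 64 controls, leaving 14 residual degrees of freedom. Within each of 26 comparisons, Benjamini-Hochberg adjustment was applied and adjusted p-values under 0.05 were called. Errors are standard errors from limma. The fit was tested on simulated data.

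Members and lists were chosen with earlier results of these data known. Every probe set of a member is given; the one with the largest SD stands for the gene in figures and class counts. Up to 3 called genes per pathway list are named, by size. Probe sets with several symbols were left out of gene matching. Promoter sequences are from RefSeq (GRCm38.p6). Figures were drawn with matplotlib 3.10.9.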

Additional observations from a re-analysis of the deposited data

How the results depend on the processing

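The members' calls were recounted under re-quantile normalisation, 1 probe set per gene, a filter on SD in place of the planned filter on low values, only the arrays compared, a replicate block, and fits without arrays; no direction of a called value reversed. The number of called members' probe sets for the line at 25 mM, 5 on average, became 3 after quantile normalisation and 3 with 1 probe set per gene. At 72 h it was 1, and became 2 without the arrays out of place, and 0 after quantile normalisation and in the fit of only the arrays compared. Without the arrays out of place, 0 h gave 1, 24 h gave 2, 48 h gave 3 and 1 mM at 72 h gave 3, all from 0. Leaving out K-ras 25 mM 72 h replicate 1 as well, a choice made after seeing the data, these were 2, 3, 3 and 3. Only the arrays compared gave 1 at 48 h. In NIH3T3, 72 minus 0 h, 1 call became 2 in both fits without arrays out of place, 3 with the SD filter and 9 with only the arrays compared, and 72 minus 24 h became 0 after quantile normalisation and 7 with only the arrays compared. Glucose in K-ras at 72 h had 1 without the arrays out of place. The share of all probe sets called in each of these fits is not given here, so these counts cannot be read as results about the members. Without the arrays out of place, 1 K-ras array is left at 0 h and 1 at 72 h in 1 mM. The cause of these moves was not tested.

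Leaving out 1 array at a time gave 2 to 6 calls for the averaged line difference and 0 to 5 at 72 h. The average fell to 2 or 3 calls without any array at 25 mM but K-ras 0 h replicate 1, K-ras 72 h replicate 2 or NIH3T3 48 h replicate 2. For time, it gave 0 to 0 in NIH3T3 for both comparisons, 0 to 5 in K-ras for 72 minus 0 h, 0 to 4 for 72 minus 24 h and 0 to 3 for the interaction. For glucose it gave 0 to 5 in K-ras at 72 h, 0 to 2 on average, 0 to 1 in NIH3T3 on average and 0 to 2 for the interaction. The highest counts at 72 h and in the K-ras and interaction comparisons named here came without K-ras 25 mM 72 h replicate 2, which leaves the array that stands apart alone in its group. The NIH3T3 count of 1 came without NIH3T3 25 mM 48 h replicate 2. A lone array is assumed to vary like the other groups. For these fits too, the share of all probe sets called is not given here.

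The replicate numbers gave no general pairing of the samples. Over 91 pairs of groups, same-numbered arrays' deviations had r of -0.62 to 0.63 (median -0.02), and 23 were over 0.1. A batch shared by some same-numbered arrays was not tested. With the replicate block, the count at 72 h was 0 in place of 1 (Bid -1.88, limma adjusted p = 0.0574). NIH3T3 1 mM 24 h comparisons could not be fitted without the arrays out of place. Array number limits precision, and signal over background is unknown.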
